A study of Mus musculus with 6 samples.

Results

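Histone-modifying enzymes place and remove acetyl and methyl groups on histone tails, and 60 of their genes are described here in mouse bone-marrow-derived macrophages exposed to extracellular vesicles (EVs) of a mould. The genes were taken by name from the deposited gene table: protein-coding entries named Hdac, Sirt, Kdm, Kat, Kmt or Setd followed by a digit, plus Ep300, Crebbp, Ezh1, Ezh2, Ehmt1, Ehmt2 and Dot1l, with at least 60 counts summed over the 6 libraries. Of the table's 41972 genes, 20461 were protein coding, 62 matched by name and 60 reached that count. Hdac7, with 176 counts, was the lowest member. The names Hdac11 and Kdm4d fell outside with 0 counts in every library, which allows up to 3 counts per library, or 0.196 to 0.219 CPM (counts scaled to a common library total). All 60 members passed the filter on low counts, so none of the counts below leaves a member out.

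Wild-type macrophages were grown from the marrow of male C57BL/6 mice, 6 weeks old, for 6 days with L-929 cell medium as the source of macrophage colony-stimulating factor. They then received PBS, or EVs of Aspergillus flavus labelled LD-F1 or LD-F1_b, at 20 µg per well, for 6 h. Each of the 3 groups had 2 biological replicates, and poly(A) RNA was sequenced. The labels call LD-F1 and LD-F1_b strains, and none of the sources used here says what sets them apart.

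Acetylation of histone tails loosens chromatin and is read by bromodomain proteins. Acetyltransferases such as Ep300 and Crebbp write it at enhancers and promoters, and histone deacetylases (HDACs) and the NAD-dependent sirtuins remove it. Methylation acts by position: on H3K4 (lysine 4 of histone H3) it marks promoters and enhancers of active genes, on H3K9 and H3K27 silent chromatin, and on H3K36 and H3K79 transcribed gene bodies. In macrophages these enzymes are known for setting which inflammatory genes can respond to microbial signals.

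Total counts per library ran from 13722215 to 15277997. The members took 0.471 to 0.477% of counts in the PBS libraries, 0.408 to 0.416% with LD-F1_b EVs, and 0.445 and 0.356% in replicates 1 and 2 with LD-F1 EVs. LD-F1 replicate 2 had the lowest share, and its long genes tended to be lower than those of LD-F1 replicate 1. A difference between replicates does not say which replicate departed. Among the 60 members, the difference between LD-F1 replicates, as log2(CPM + 1), had a Spearman correlation with gene length of -0.65, against -0.37 between LD-F1_b replicates and 0.01 between PBS replicates. Over all 8627 genes with at least 10 CPM the values were -0.51, -0.22 and -0.01, so the trend was not limited to these enzymes. These correlations are across genes, which share libraries and are not replicates, and describe the libraries only. Crebbp, an acetyltransferase with a gene length of 12942 bases in the table, had the lowest value, with 1182 counts in LD-F1 replicate 1 and 616 in replicate 2. Against PBS, 11 of the 60 members were called with all libraries, 17 without LD-F1 replicate 2 and 26 without LD-F1 replicate 1, where 21.2%, 22.2% and 33.7% of all genes were called. Values without 1 of these libraries are given for some of the long members.

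**Figure D1:**
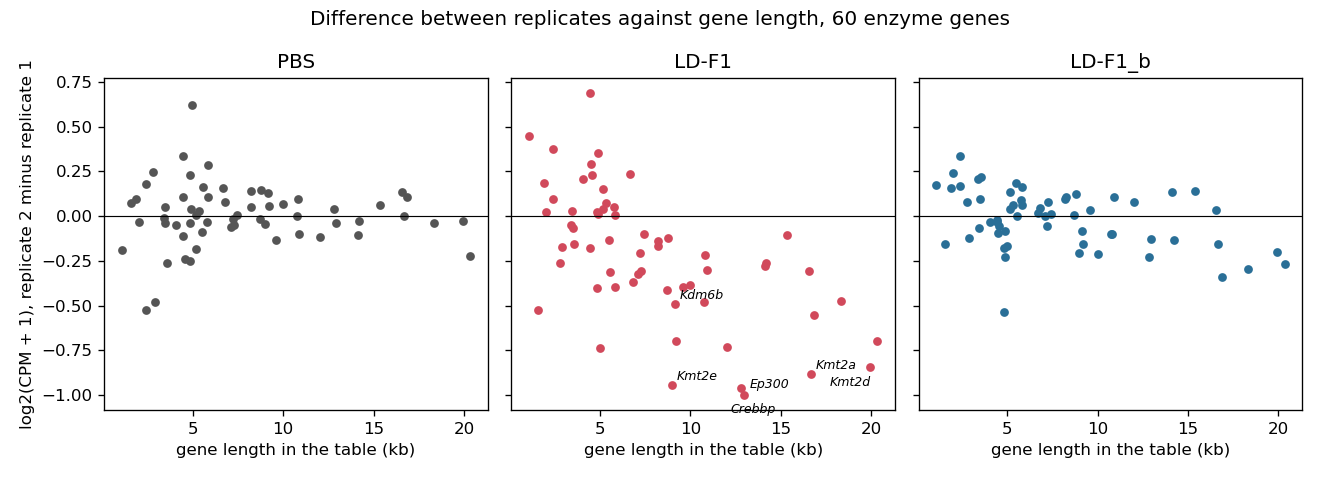
Difference in log2(CPM + 1) between replicate 2 and replicate 1 (vertical axis) against the gene length in the table in kilobases (horizontal axis) for the 60 members, 1 point per gene, in PBS, LD-F1 and LD-F1_b libraries. In LD-F1 the points slope down with length (Spearman correlation -0.65) to Crebbp, the lowest point, and in PBS they scatter around 0.

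The cell-type label was checked against markers. Adgre1 (5944 to 6463 counts per library), Csf1r and Cd68 were abundant, while Mertk and Itgam, also used to define macrophages, had at most 10 and 4 counts in any library. Markers of neutrophils, T and NK cells, B cells, fibroblasts, mast cells, and erythroid cells and megakaryocytes summed to under 2 CPM per list in every library. In the erythroid and megakaryocyte list Hba-a1 and Gp9 were at 0, and the sum was 0.189 to 0.457 CPM in PBS and 0.765 to 1.59 in the EV libraries. Its 1 tested gene, Ppbp, a platelet chemokine, had 2 and 0 counts in PBS, 13 and 14 with LD-F1 and 8 and 17 with LD-F1_b EVs, and was called higher in both comparisons (edgeR adjusted p = 0.0182 and 0.0406). The dendritic-cell list, with Ccr7 and Siglech at 0, summed to 2.90 to 3.20 CPM in PBS, 8.89 to 8.92 with LD-F1 and 6.15 to 6.81 with LD-F1_b EVs. Of its 3 tested genes, Xcr1, a chemokine receptor, rose in both comparisons (log2 fold changes 2.72 and 1.86), while Zbtb46 (-0.90 and -0.27) and Cd209a (-1.26 and 0.42) were not called. The part of either list in the results was not tested.

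In PBS, the members' mean CPM per kilobase of gene length ran from 0.487 (Hdac7) to 48.4 (Kat2a). Kat2a, the GCN5 acetyltransferase of SAGA-type complexes, was followed by Kmt5a (43.5), which methylates H4K20, Ehmt2 (40.8), an H3K9 methyltransferase, and Dot1l (26.3), the H3K79 methyltransferase. Among the deacetylases Hdac2 (22.7) and Hdac1 (21.3), the paired catalytic subunits of the Sin3 and NuRD corepressors, were highest, and the class IIa enzymes, which shuttle between cytoplasm and nucleus, were low (Hdac5 6.33, Hdac4 3.94, Hdac9 1.26, Hdac7 0.487). Kdm6b and Kdm5b, which rose with EVs, started low, at 2.11 and 2.07 CPM per kilobase, below their paralogues Kdm6a (4.62) and Kdm5a (7.38).

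**Figure D2:**
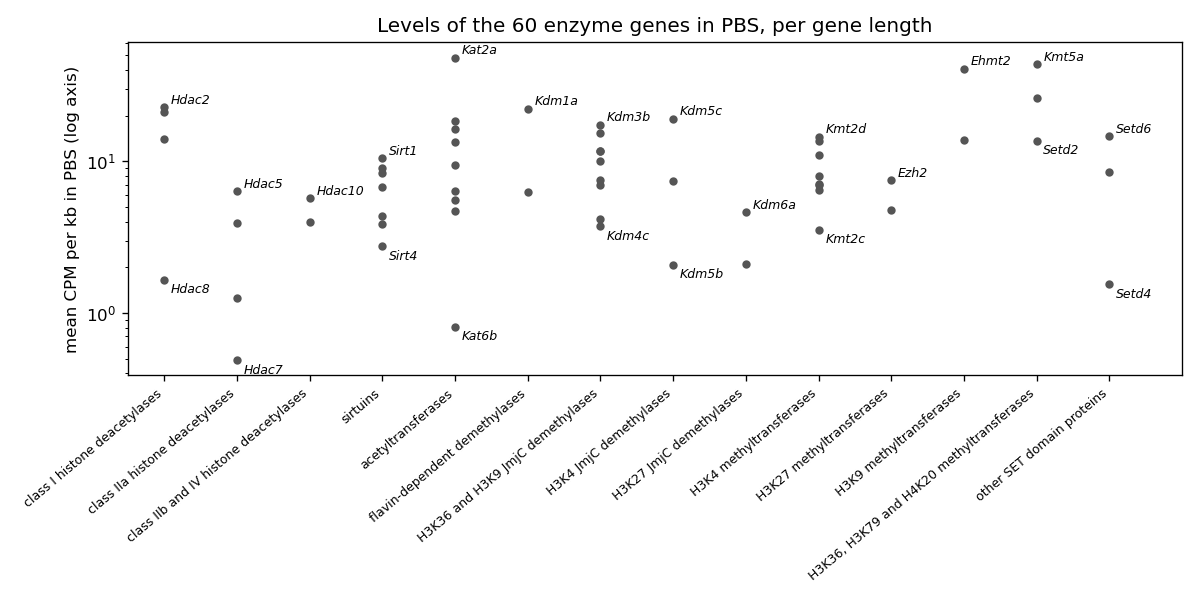
Mean CPM per kilobase of gene length in the 2 PBS libraries (log axis) for the 60 members, 1 point per gene, by role. The highest gene of each role is named, and the lowest too in roles of over 2 genes, and the levels span 0.487 (Hdac7) to 48.4 (Kat2a).

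With LD-F1 EVs, 3 members rose and 8 fell against PBS at an adjusted p under 0.05 (edgeR quasi-likelihood F test, Benjamini-Hochberg over 12740 genes), and 49 were not called. Over all genes tested, 21.2% were called in this comparison, 11.4% higher and 9.87% lower, so 11 of 60 members is no more than the background share. The members' median log2 fold change was -0.09, against 0.01 for all genes. With LD-F1_b EVs, 2 members rose and 4 fell, where the background was 11% called, 6.44% higher and 4.54% lower, and the median was -0.08 against 0.01, so 6 of 60 was again near the background. Without regard to a test, 9 members lay above and 25 below both PBS libraries in both LD-F1 libraries, against 29.9% and 29.6% of all genes, and 15 above and 28 below with LD-F1_b EVs, against 30.4% and 30%. The comparisons share the PBS libraries. All 6 genes called with LD-F1_b EVs (Kdm6b and Kdm5b higher, Ezh2, Kdm2b, Kdm3b and Ehmt1 lower) were called in the same direction with LD-F1 EVs. In this fit of all 6 libraries, Kdm4a (higher), Kat2a, Setd7, Ehmt2 and Setd2 (lower) passed with LD-F1 but not with LD-F1_b EVs, and for none of these 5 was the difference between the EV groups itself called. A bulk measurement cannot tell less RNA per cell from fewer cells that express a gene.

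Scaling by library totals alone moved the median of all genes in the LD-F1 comparison from 0.01 to -0.10. The share of higher genes among all calls moved from 53.5% to 33.6% there, and from 58.7% to 41.7% in the LD-F1_b comparison. With LD-F1 EVs this scaling gave 3 members higher and 13 lower. Of the 12740 genes tested it called 977 higher and 1934 lower, 22.8% in all. The counts also depended on which libraries were fitted together. Without the LD-F1 libraries, LD-F1_b against PBS gave 7 members higher and 19 lower, with 24.8% of all genes called. Kdm4a, Kat2a, Setd7, Ehmt2 and Setd2 were all among these (adjusted p from 0.000712 to 0.0133). Without the LD-F1_b libraries, Kat2a, Setd7 and Setd2 in turn lost their LD-F1 calls (adjusted p from 0.0588 to 0.0694). The 4 lower calls with LD-F1_b EVs were lost without either PBS library or either LD-F1_b library. Fewer of all genes were called in those refits too. Across the 14 alternative settings the log2 fold changes of these 4 genes ran from -0.55 to -0.30.

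**Figure D3:**
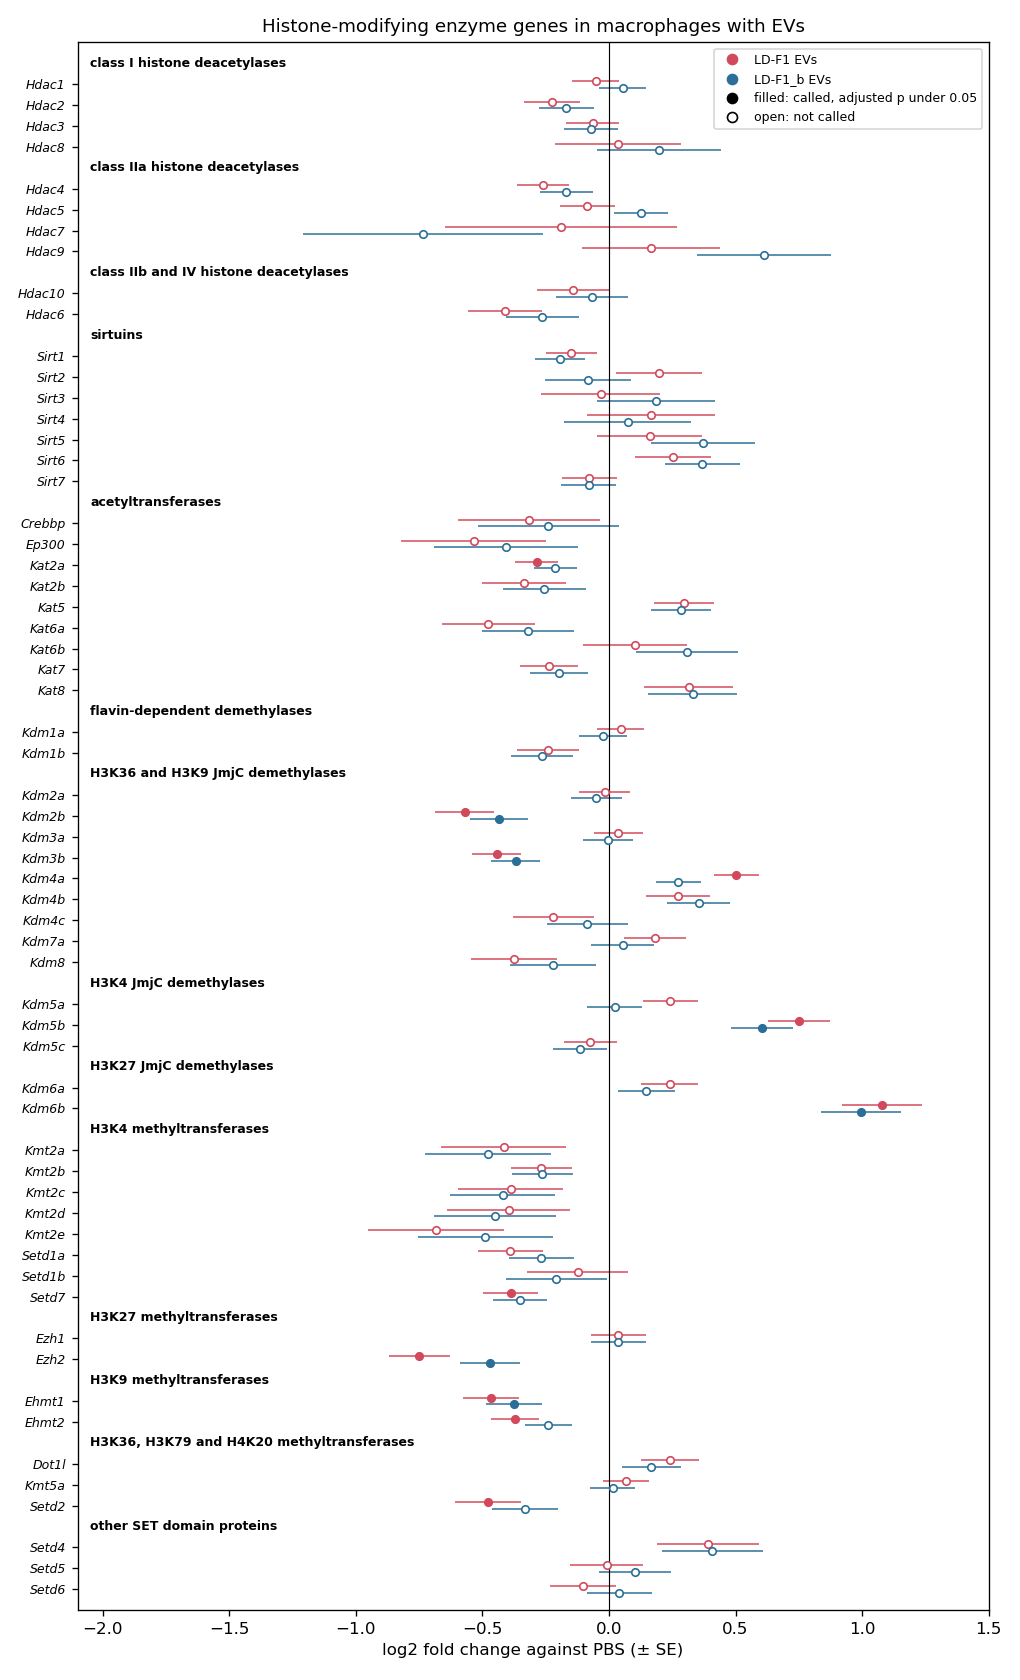
Log2 fold change against PBS with its standard error (horizontal axis) for each of the 60 members, by role, with LD-F1 EVs in red and LD-F1_b EVs in blue, and filled points for genes called at an adjusted p under 0.05. Kdm6b lies farthest to the right in both comparisons (1.08 and 0.99), Ezh2 has the lowest value with LD-F1 EVs (-0.75), and all 17 deacetylases are open.

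The genes that rose were all demethylases of the JmjC family, which use iron and 2-oxoglutarate. Kdm6b (chromosome 11, 71941015 to 71957862 in the table's C57BL/6NJ coordinates), also called JMJD3, removes methyl groups from H3K27 and is known as an inducible gene of activated macrophages. It had 282 and 321 counts in the PBS libraries, 639 and 476 with LD-F1 EVs, and 570 and 540 with LD-F1_b EVs. All 4 EV libraries were above both PBS libraries. The mean rose from 19.3 ± 1.29 CPM (SD, n = 2) in PBS to 40.9 ± 9.93 with LD-F1 and 38.5 ± 1.64 with LD-F1_b EVs. These are log2 fold changes of 1.08 ± 0.16 (SE; 2.11-fold; edgeR adjusted p = 0.000431) and 0.99 ± 0.16 (1.99-fold; adjusted p = 0.0017). Kdm6b was called in both comparisons under each of the 14 alternative settings tried, and its LD-F1 value was 1.31 without LD-F1 replicate 2 and 0.81 without replicate 1. Kdm6a (UTX), the X-linked enzyme with the same substrate, had log2 fold changes of 0.24 and 0.15 and was not called, and the difference between the paralogues was not tested.

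Kdm5b (JARID1B; chromosome 1, 143276745 to 143358736), an H3K4 demethylase, had 501 and 572 counts in PBS, 856 and 726 with LD-F1 and 743 and 766 with LD-F1_b EVs. Again the 4 EV libraries lay above both PBS libraries. The log2 fold changes were 0.75 ± 0.12 (adjusted p = 0.00095) and 0.61 ± 0.12 (adjusted p = 0.00766). The second of these lost its call without PBS replicate 1 (0.53, adjusted p = 0.134), LD-F1_b replicate 1 (0.62, adjusted p = 0.0863) or LD-F1_b replicate 2 (0.59, adjusted p = 0.105). Its paralogues Kdm5a (0.24 and 0.02) and Kdm5c (-0.07 and -0.12) were not called. Without LD-F1 replicate 1 Kdm5c was called lower with LD-F1 EVs (-0.25), and without replicate 2 it was 0.08.

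Kdm4a (JMJD2A; chromosome 4, 123738891 to 123786387), which demethylates H3K9 and H3K36, had 1378 and 1398 counts in PBS, 1651 and 1806 with LD-F1 and 1499 and 1606 with LD-F1_b EVs. In CPM the order was PBS (89.9 and 88.1), LD-F1_b (104 and 111) and LD-F1 (124 and 128), with no overlap between groups. The log2 fold change was 0.50 ± 0.09 with LD-F1 (adjusted p = 0.00149). With LD-F1_b EVs it was 0.27 ± 0.09 and missed the threshold (adjusted p = 0.0705). Its paralogue Kdm4b had 0.27 and 0.35, and Kdm4c -0.22 and -0.09, none of them called. Kdm4c was called lower with LD-F1 EVs without LD-F1 replicate 1 (-0.45) and was -0.03 without replicate 2.

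No promoter window was matched to Kdm6b, so its promoter was not searched. The promoter windows of Kdm4a and Kdm5b, which also rose, are printed because 1 of them holds a match to a motif of a stimulus-responsive factor and the other does not. Each runs from 250 bases before to 50 bases after the RefSeq start site (build GRCm38.p6, which is not the build of the count table), 5′ to 3′ on the gene's strand, with a motif match in capitals. Kdm4a is at chr4:118179994-118180293, minus strand, and Kdm5b at chr1:134559928-134560227, plus strand.
Kdm4a: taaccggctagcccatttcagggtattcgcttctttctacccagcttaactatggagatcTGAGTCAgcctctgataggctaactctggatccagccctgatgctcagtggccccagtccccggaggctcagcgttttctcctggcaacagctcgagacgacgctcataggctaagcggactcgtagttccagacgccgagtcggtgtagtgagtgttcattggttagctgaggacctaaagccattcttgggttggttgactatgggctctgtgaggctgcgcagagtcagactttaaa
Kdm5b: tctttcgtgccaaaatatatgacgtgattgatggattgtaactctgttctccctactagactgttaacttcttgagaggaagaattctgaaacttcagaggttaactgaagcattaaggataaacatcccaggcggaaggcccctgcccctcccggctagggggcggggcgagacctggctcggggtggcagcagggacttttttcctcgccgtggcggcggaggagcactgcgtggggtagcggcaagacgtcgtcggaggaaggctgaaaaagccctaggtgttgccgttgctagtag
The capitals in Kdm4a mark the AP-1 motif TGANTCA, first base 190 bases before the start site. The motif occurs in 7.81% of the 32851 RefSeq mouse windows of this length and in 8 of the members' 67 windows (11.9%), some members having more than 1. Among the 48 members matched to the table by symbol, 7 held it (Hdac7, Hdac9, Kat2b, Kat8, Kdm3a, Kdm4a and Kdm5c), of which Kdm4a was called. The window of Kdm5b held none of the 6 motifs searched on both strands, which were chosen with results of these data known. The other motifs were CRE TGACGTCA (1.79% of windows; 0 members), E2F TTTGGCGC or TTTCCCGC (1.56%; Ezh2 and Sirt4) and ATF4 TGATGCAA (0.895%; 0 members). The NF-kB motif, given by name alone, occurred in 1.63% of windows and in 1 member, Hdac9, and the interferon-stimulated response element (ISRE) in 3.44% and in 1 member, Kat5. Neither printed window held more than 1 match, so none overlapped. A match describes the letters only.

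Of the other demethylases, Kdm2b and Kdm3b fell. Kdm2b (chromosome 5, 131415000 to 131547475) binds unmethylated CpG islands, removes methyl groups from H3K36 and brings in Polycomb proteins. It had 1308 and 1263 counts in PBS, 820 and 698 with LD-F1 and 844 and 916 with LD-F1_b EVs, so that all EV libraries were below both PBS libraries. The log2 fold changes were -0.57 ± 0.12 (adjusted p = 0.004) and -0.43 ± 0.12 (adjusted p = 0.0305). Without PBS replicate 1 the LD-F1 value was -0.52 (adjusted p = 0.0608), and without any of the PBS or LD-F1_b libraries the LD-F1_b call was lost (adjusted p from 0.128 to 0.276). Kdm3b, an H3K9 demethylase, fell by 0.44 on the log2 scale with LD-F1 and by 0.37 with LD-F1_b EVs, with adjusted p of 0.00588 and 0.0271. The first missed the threshold without PBS replicate 1 (adjusted p = 0.076) or 2 (adjusted p = 0.0641), and the second without any of the PBS or LD-F1_b libraries (adjusted p from 0.163 to 0.235). Their paralogues Kdm2a (0.989-fold and 0.966-fold) and Kdm3a (1.03-fold and 0.998-fold) were not called.

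In all, 3 of 16 demethylases rose and 2 fell with LD-F1 EVs, and 2 rose and 2 fell with LD-F1_b EVs. Over all genes tested, 11.4% rose and 9.87% fell in the first comparison, and 6.44% and 4.54% in the second. Kdm1a (LSD1), the flavin-dependent H3K4 demethylase of the CoREST complex, had the highest level per kilobase of its role and 1763 and 1834 counts in PBS, 1503 and 1762 with LD-F1 and 1552 and 1719 with LD-F1_b EVs. Its CPM ranges overlapped between groups (log2 fold changes 0.05 ± 0.09 and -0.02 ± 0.09). Kdm1b (-0.24 and -0.26), Kdm7a (0.18 and 0.05) and Kdm8 (-0.38 and -0.22) were not called. Without LD-F1 replicate 2, Kdm5a (0.37, adjusted p = 0.00217) and Kdm7a (0.36, adjusted p = 0.00367) were also called higher with LD-F1 EVs. Of the 6 tested JmjC proteins outside the naming rule, Mina (Riox2), a ribosomal and histone hydroxylase, rose with LD-F1 EVs (0.48), and Phf2, a plant-homeodomain JmjC protein, fell with both (-0.59 and -0.44).

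**Figure D4:**
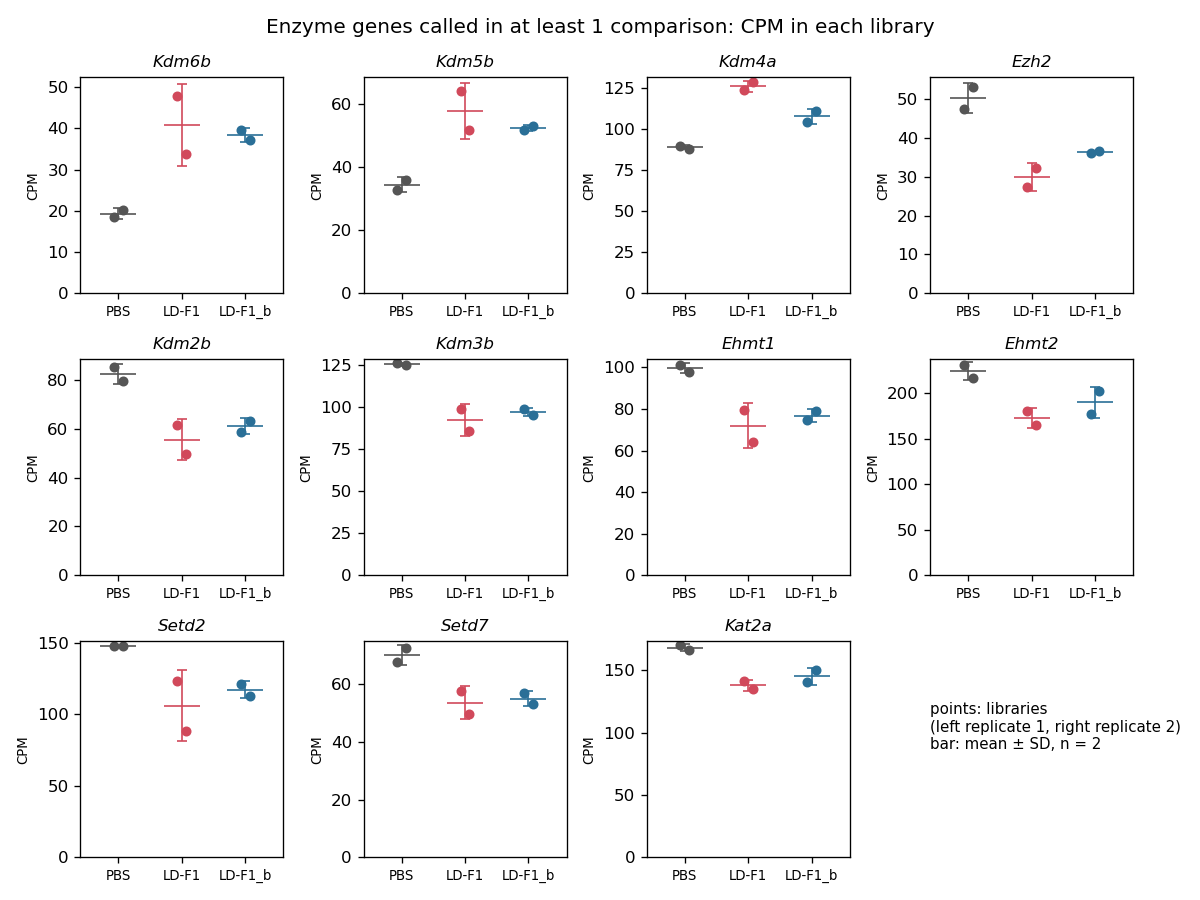
CPM (vertical axis, from 0) in each library of the 11 members called in at least 1 comparison, by group, with points for libraries and bars for mean ± SD of 2 replicates. In all 11 panels the EV libraries lie on 1 side of both PBS libraries, above for Kdm6b, Kdm5b and Kdm4a and below for the other 8.

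Ezh2 (chromosome 6, 47542479 to 47626591), the catalytic subunit of Polycomb repressive complex PRC2, which methylates H3K27, had the lowest fold change of the 60 members with LD-F1 EVs. It had 727 and 842 counts in PBS, 365 and 455 with LD-F1 and 518 and 529 with LD-F1_b EVs. The 3 groups did not overlap in CPM, with PBS highest (50.2 ± 3.96, SD, n = 2), LD-F1_b next (36.3 ± 0.376) and LD-F1 lowest (29.9 ± 3.54). The log2 fold changes were -0.75 ± 0.12 (1.68-fold lower; adjusted p = 0.000839) and -0.47 ± 0.12 (1.38-fold lower; adjusted p = 0.0243). The LD-F1 call held in each of the 14 alternative settings, and the LD-F1_b call was lost without either PBS or either LD-F1_b library (adjusted p from 0.0988 to 0.278). Ezh1, its paralogue, which predominates in resting cells, had log2 fold changes of 0.04 ± 0.11 in both comparisons.

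Ezh2 is known as a gene of dividing cells, and proliferation markers moved with it. Of 15 such markers tested, 13 fell with LD-F1 and 10 with LD-F1_b EVs, where 9.87% and 4.54% of all genes fell. The markers' summed level was 2952 and 2975 CPM in PBS, 2207 to 2216 with LD-F1_b and 1745 to 1829 with LD-F1 EVs. Their part in the Ezh2 result was not tested. Among 9 other PRC2 subunits, Jarid2, which targets the complex, rose with both EVs (1.35 ± 0.12, adjusted p = 8.85e-06, and 0.87 ± 0.12, adjusted p = 0.000614), and Phf19, an accessory subunit that reads methylated H3K36, fell with both (-0.79 and -0.63). The core subunits Eed (-0.22 and -0.24) and Suz12 (-0.12 and -0.07) were not called. Jarid2 went from 547 and 705 counts in PBS to 1363 and 1443 with LD-F1 and 985 and 1131 with LD-F1_b EVs.

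The Ezh2 window (RefSeq, GRCm38.p6, chr6:47594981-47595280, minus strand) is printed because it holds the E2F motif TTTGGCGC, in capitals, beginning 3 bases after the start site.
Ezh2: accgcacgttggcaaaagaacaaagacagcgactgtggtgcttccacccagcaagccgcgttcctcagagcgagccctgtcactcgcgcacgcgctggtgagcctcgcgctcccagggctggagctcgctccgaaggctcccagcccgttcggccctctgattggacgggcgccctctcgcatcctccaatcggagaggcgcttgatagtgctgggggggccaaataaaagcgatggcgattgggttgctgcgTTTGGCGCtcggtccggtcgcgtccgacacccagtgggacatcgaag
That motif, in either of its spellings, was found in 2 of the 67 windows (2.99%) of the 48 matched members, Ezh2 and the mitochondrial sirtuin gene Sirt4, which was not called.

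Ehmt1 (GLP) and Ehmt2 (G9a) form a heterodimer that methylates H3K9. Ehmt2 had 3538 and 3447 counts in PBS, 2414 and 2323 with LD-F1 and 2554 and 2922 with LD-F1_b EVs, and Ehmt1 had 1552 and 1556, 1064 and 905, and 1074 and 1143. In both genes all EV libraries were below the PBS libraries in CPM. Ehmt1 fell with both EVs (-0.47 ± 0.11, adjusted p = 0.00999, and -0.38 ± 0.11, adjusted p = 0.0483), and Ehmt2 with LD-F1 EVs (-0.37 ± 0.09, adjusted p = 0.0142; -0.24 ± 0.09, adjusted p = 0.134, with LD-F1_b). The LD-F1 calls were lost without PBS replicate 1 (Ehmt1 adjusted p = 0.101, Ehmt2 0.181) or PBS replicate 2 (0.0646 and 0.0777), and the LD-F1_b call of Ehmt1 without any of the PBS or LD-F1_b libraries (adjusted p from 0.211 to 0.316). Suv39h1, another H3K9 methyltransferase, outside the naming rule, fell with both EVs (-0.66 and -0.56). It had the lowest values of 17 other histone methyltransferases tested. Among these, 1 rose and 2 fell with LD-F1 EVs, and 0 rose and 1 fell with LD-F1_b EVs. The background was 11.4% higher and 9.87% lower in the first comparison, and 6.44% and 4.54% in the second.

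The 8 H3K4 methyltransferase genes all had negative log2 fold changes in both comparisons, from -0.68 to -0.12 with LD-F1 and from -0.49 to -0.21 with LD-F1_b EVs, with medians of -0.39 in each. Of the 8, 6 lay below PBS in both LD-F1 libraries, and all 8 in both LD-F1_b libraries, against 29.6% and 30% of all genes. All 8 are longer than the members' median length, and of the 2575 tested genes above that length 1110 and 1232 lay below. Setd7, which adds a first methyl group to H3K4 and to many other proteins, was the only one of the 8 called, with LD-F1 EVs (-0.39 ± 0.11, adjusted p = 0.0243). Setd7 lost that call without any of the PBS or LD-F1_b libraries (adjusted p from 0.0551 to 0.219). Setd1a narrowly missed the threshold with LD-F1 EVs (-0.39 ± 0.13, edgeR adjusted p = 0.0509). In edgeR it was called lower there under the other scalings and filters tried, but not by DESeq2. Kmt2b, with the highest level per kilobase of the role over all libraries, had 2101 and 1981 counts in PBS, 1651 and 1319 with LD-F1 and 1549 and 1599 with LD-F1_b EVs. Its LD-F1 log2 fold change was -0.27, not called, and it was -0.08 without LD-F1 replicate 2 and -0.48, called, without replicate 1.

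The MLL-family members, with their long genes, showed the spread between LD-F1 replicates. Those named here were picked out after their values were seen. Kmt2d, which with Kmt2c methylates H3K4 at enhancers, had 3774 counts in LD-F1 replicate 1 and 2209 in replicate 2. In CPM these are 283 and 157, against 292 and 287 in PBS and 226 and 197 with LD-F1_b EVs. Its LD-F1 log2 fold change was -0.40 ± 0.24 with all libraries, -0.04 without replicate 2 and -0.88 without replicate 1. Kmt2a (MLL1) behaved likewise, at -0.42, -0.04 and -0.93. Kmt2e, which lacks clear methyltransferase activity, went from -0.68 to -0.28 (adjusted p = 0.0383, called) without replicate 2.

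The H3K4 group thus gave 1 called member of 8 with LD-F1 EVs, 2 without LD-F1 replicate 2 and 8 without LD-F1 replicate 1, while 21.2%, 22.2% and 33.7% of all genes were called in these fits. With LD-F1_b EVs 0 of 8 were called in the fit of all 6 libraries, where 2 had an unadjusted p under 0.05 and DESeq2 also called 0, and 8 of 8 were called when the LD-F1 libraries were left out, with a median of -0.39 and 24.8% of all genes called. Correcting each library for its trend with gene length gave medians of -0.21 and -0.23 and 0 calls in both comparisons, and Setd1b then stood at 0.02 with LD-F1 EVs. Of 10 COMPASS subunits, which assemble with these enzymes, 2 fell in each comparison: Paxip1 (-0.78 and -0.51) and Men1 (-0.51 and -0.35). The background of lower genes was 9.87% with LD-F1 and 4.54% with LD-F1_b EVs.

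**Figure D5:**
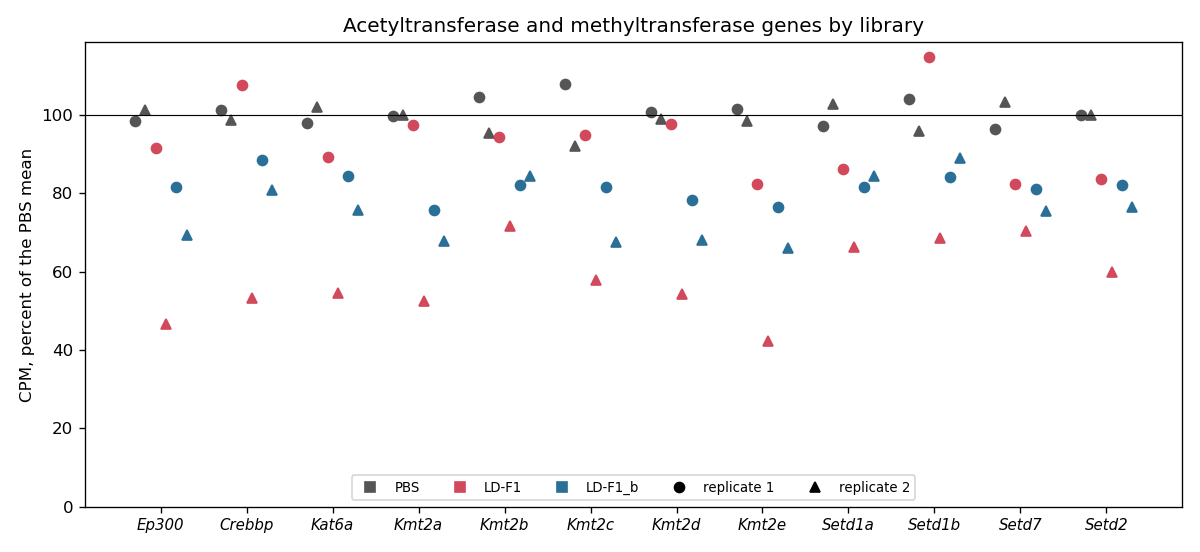
CPM in each library as a percentage of the PBS mean (vertical axis, from 0) for 12 acetyltransferase and methyltransferase genes, with colours for groups, circles for replicate 1 and triangles for replicate 2. The red triangle, LD-F1 replicate 2, is the lowest point for each of the 12 genes, and the blue LD-F1_b points lie between it and the PBS points.

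Among the 9 acetyltransferases 1 was called with LD-F1 EVs and 0 with LD-F1_b EVs, where 21.2% and 11% of all genes were called. DESeq2 called 2 with LD-F1 EVs, Kat2a and Kat6a, with 18.9% of all genes called, and 0 with LD-F1_b EVs. Kat2a had 2615 and 2637 counts in PBS, 1885 and 1900 with LD-F1 and 2019 and 2172 with LD-F1_b EVs, all EV libraries being lower in CPM. It fell with LD-F1 EVs (-0.28 ± 0.08, adjusted p = 0.0324), a call lost without any of the PBS or LD-F1_b libraries (adjusted p from 0.0691 to 0.274), and was -0.21 ± 0.08 with LD-F1_b EVs. Ep300, the p300 enzyme that acetylates H3K27 at enhancers, had 2587 and 2756 counts in PBS, 2090 and 1123 with LD-F1 and 2008 and 1721 with LD-F1_b EVs. Its values of -0.54 ± 0.29 and -0.41 ± 0.28 were not called, though the first was called with the replicate number as a block. Its LD-F1 value was -0.13 without LD-F1 replicate 2 and -1.10 without replicate 1. Its homologue Crebbp (CBP) had -0.32 ± 0.28 and -0.24 ± 0.28, the first being 0.10 without LD-F1 replicate 2 and -0.91 without replicate 1. For both genes the direction or size with LD-F1 EVs thus rested on 1 library, while both LD-F1_b libraries were below both PBS libraries.

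Kat6a (MOZ) had -0.48 and -0.32 and its paralogue Kat6b 0.10 and 0.31. Without LD-F1 replicate 2 the LD-F1 values were -0.17 and 0.37, and without replicate 1 they were -0.87, called, and -0.22. With all libraries, Kat6a was called lower with LD-F1 EVs by DESeq2, with the replicate number as a block, and without a filter beyond 1 count. Without that filter it was called lower with LD-F1_b EVs too. Kat5 (TIP60; 0.30 and 0.28) and Kat8 (MOF, which acetylates H4K16; 0.31 and 0.33) were positive in both comparisons, and Kat2b (-0.34 and -0.26) and Kat7 (HBO1; -0.24 and -0.20) negative, none of them called. Kat7 was called lower with LD-F1 EVs without LD-F1 replicate 1 (-0.40) and was -0.09 without replicate 2. Of 26 other subunits of acetyltransferase complexes, 0 rose and 1 fell in each comparison, Jade1 (-0.48 and -0.56), a scaffold of the HBO1 complex. Among 11 bromodomain proteins, which read acetylation, Baz1b fell with both EVs (-0.62 and -0.50) and Brd3 with LD-F1 EVs (-0.40). For both lists the background was 11.4% higher and 9.87% lower with LD-F1 EVs, and 6.44% and 4.54% with LD-F1_b EVs.

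None of the 10 tested HDAC genes and none of the 7 sirtuin genes was called in any of the 3 comparisons. Of all genes tested, 21.2% were called with LD-F1 EVs, 11% with LD-F1_b EVs and 0.424% between the EV groups. At an unadjusted p under 0.05 there were 2 of the 17 in each comparison with PBS and 0 between the EV groups, and DESeq2 called 0 in all 3. Their log2 fold changes ran from -0.41 (Hdac6, the tubulin deacetylase) to 0.25 (Sirt6) with LD-F1 EVs and from -0.73 (Hdac7) to 0.61 (Hdac9) with LD-F1_b EVs, and the medians were -0.07 in both. Single deacetylases passed in some alternatives: Hdac2, Hdac4 and Hdac6 fell with LD-F1 EVs under library totals alone, Hdac2 without LD-F1 replicate 2, Hdac4 without LD-F1 replicate 1, and Hdac9 and Sirt6 rose with LD-F1_b EVs without the LD-F1 libraries. Hdac1 had 1107 and 1187 counts in PBS, 936 and 1006 with LD-F1 and 1123 and 1079 with LD-F1_b EVs, for log2 fold changes of -0.05 ± 0.09 and 0.05 ± 0.09. Its partner Hdac2 had -0.22 ± 0.11 and -0.17 ± 0.11, and Hdac3, the catalytic subunit of the NCoR complex, -0.07 ± 0.11 in both.

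Hdac5, the most abundant class IIa gene, had 807 and 928 counts in PBS, 729 and 705 with LD-F1 and 834 and 916 with LD-F1_b EVs, and its CPM overlapped with PBS in both comparisons. Hdac10, a polyamine deacetylase, had 297 and 306, 238 and 242, and 245 and 287 counts. The extremes with LD-F1_b EVs were shallow genes: Hdac7 had 19 to 50 counts per library (-0.73 ± 0.48) and Hdac9 61 to 124 (0.61 ± 0.27). A change of the size of these standard errors was not detectable for them at this depth.

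Sirt1, the nuclear sirtuin that deacetylates histones and transcription factors, had 846 and 896 counts in PBS, 655 and 726 with LD-F1 and 686 and 721 with LD-F1_b EVs. All 4 EV libraries were below PBS in CPM, at -0.15 ± 0.10 and -0.20 ± 0.10. The mitochondrial sirtuins Sirt3 (-0.03 and 0.19), Sirt4 (0.17 and 0.07) and Sirt5 (0.16 and 0.37) had 622, 608 and 875 counts over all 6 libraries, and standard errors of 0.21 to 0.25. Of 20 subunits of deacetylase corepressor complexes, Sap30 of the Sin3 complex rose with LD-F1 EVs (0.57), and the NuRD remodellers Chd3 (-0.72 and -0.54) and Chd4 (-0.46 and -0.40) fell with both. The background was 11.4% higher and 9.87% lower with LD-F1 EVs, and 6.44% and 4.54% with LD-F1_b EVs.

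Setd2, the enzyme that trimethylates H3K36 behind RNA polymerase, fell with LD-F1 EVs (-0.48 ± 0.13, adjusted p = 0.0205). In CPM it was 148 and 147 in PBS, 123 and 88.3 with LD-F1 and 121 and 113 with LD-F1_b EVs. The call was lost without any of the PBS or LD-F1_b libraries (adjusted p from 0.0589 to 0.108), and the value was -0.26 without LD-F1 replicate 2. With LD-F1_b EVs it was -0.33 ± 0.13 (adjusted p = 0.132). Dot1l, at 230 and 228 CPM in PBS, was higher in all 4 EV libraries (309 and 232, 257 and 258) but not called (0.24 and 0.17). Without LD-F1 replicate 2 its LD-F1 value was 0.43 and called. Kmt5a, the highest of the role per kilobase, had 3076 and 2955 counts in PBS, 2868 and 2674 with LD-F1 and 2843 and 2793 with LD-F1_b EVs (0.07 ± 0.09 and 0.01 ± 0.09).

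Kmt5b and Kmt5c, which add further methyl groups to H4K20, are in the table under the older symbols Suv420h1 and Suv420h2, which the naming rule does not reach. Suv420h1 rose with LD-F1 EVs (0.35 ± 0.11, adjusted p = 0.0337), and Suv420h2 fell with both EVs (-0.75 ± 0.16, adjusted p = 0.00477, and -0.53 ± 0.15, adjusted p = 0.0474). Of the remaining SET-domain members, Setd6, known to methylate the NF-kB subunit RelA, had 403 and 448 counts in PBS, 316 and 381 with LD-F1 and 380 and 429 with LD-F1_b EVs (-0.10 ± 0.13 and 0.04 ± 0.13). Setd4 (0.39 and 0.41) and Setd5 (-0.01 and 0.10) were not called. The LD-F1 value of Setd5 was 0.21 without LD-F1 replicate 2 and -0.27, called lower, without replicate 1.

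Between the EV preparations, 0 of 60 members were called (0.424% of all genes, 0.0157% higher and 0.408% lower; edgeR), 2 had an unadjusted p under 0.05, and DESeq2 also called 0. The log2 fold changes of LD-F1_b against LD-F1 ran from -0.55 (Hdac7) to 0.45 (Hdac9), with a median of 0.05. The CPM of 6 members lay above and of 3 below LD-F1 in both LD-F1_b libraries, where 17% of all genes did so in each direction. Ezh2 was higher with LD-F1_b than with LD-F1 EVs in both libraries (0.28 ± 0.12, adjusted p = 0.541) and Kdm4a lower (-0.23 ± 0.09, adjusted p = 0.469). Without LD-F1 replicate 1, 9 members were called higher and 1 lower with LD-F1_b EVs, with 8.65% of all genes called, and without replicate 2, 0 and 6, with 2.7% of all genes called. Crebbp, Kmt2a, Kmt2d and Setd1b were called in opposite directions in these refits, so each LD-F1 library set the direction of the contrast for those genes.

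Longer members had lower values. Split at the members' median gene length of 6250.5 bases, the 30 longer members had median log2 fold changes of -0.26 with LD-F1 and -0.22 with LD-F1_b EVs, and the 30 shorter ones -0.06 and -0.05. All 12740 tested genes split at the same length had medians of -0.12 and -0.10 (2575 longer genes) and 0.04 and 0.03 (10165 shorter genes). All 6 members called with LD-F1_b EVs were among the longer ones. Of all genes, 134 of the 2575 longer ones rose and 218 fell with LD-F1_b EVs, against 686 and 360 of the 10165 shorter ones. Correcting each library for its trend with length kept 10 of the 11 LD-F1 calls, lost Setd7 (-0.24, adjusted p = 0.0649), and added Dot1l (0.35), Kdm5a (0.43), Kdm6a (0.35) and Kdm7a (0.31) as higher.

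Reads of genes that overlap on opposite strands could be mixed, since none of the sources used here states the strand setting of the counting. Such an overlap with a gene of at least 1 count touched 21 members, and in 7 the other gene held at least 10% of the member's counts. Those 7 are Hdac7, Sirt2, Sirt3, Kat5, Kdm1a, Kdm2b and Kdm5a, and their levels are uncertain to that extent. Kdm2b was the only called one, overlapping Rnf34 over 214 bases. The antisense partner of Kdm6b, Kdm6bos, had 6 counts over all libraries against 2828 for Kdm6b.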

How the data were processed

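RNA of 6 libraries (3 groups, 2 biological replicates each) was analysed from the table the authors deposited: unnormalised read counts for each gene, as whole numbers, beside 1 length per gene. The submitters' processing notes name featureCounts 1.5.0-p3, HISAT2 2.0.5, fastp, the build GRCm39 and StringTie 1.3.3b, without their order. The table's gene identifiers are those of the C57BL/6NJ annotation, and its last gene on chromosome 1 ends at 208807027, beyond that build, and printed positions are the table's own. None of the sources used here states the strand setting or the handling of multi-mapped reads, which leaves genes with close copies or overlaps uncertain. Of the per-sample columns, 0 stayed unmatched, and 0 rows lacked an identifier.

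Genes passing filterByExpr (12740) were fitted in edgeR 4.0.16 (R 4.3.3; TMM scaling, 1 mean per group, robust quasi-likelihood F test, 3 residual degrees of freedom) with all 6 libraries sharing the spread. P-values were adjusted by Benjamini-Hochberg over all genes tested and called under 0.05. The standard error is the log2 fold change divided by the square root of F. CPM are counts scaled to a common total by the TMM-adjusted library size. Counts per library are the depth, and floors of 3 counts cover counting error only. The fit was tested on simulated data. DESeq2 1.42.0, other scalings and filters, a gene-length offset (lowess, span 0.3), fits of 2 groups and leaving out each library were alternatives. A group left with 1 library is then assumed to vary like the others.

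The members and lists were chosen with earlier results of these data known. Library values are given for called members that moved by 0.5 or more on the log2 scale and for the highest member per kilobase of each other role; others named with library values were picked after their values were seen. Promoter windows are RefSeq's (GRCm38.p6), matched by symbol for 48 of 60 members and 9 of the 11 called ones, all but Kdm6b and Kdm3b. Setdb1, Prmt1, Uty and the genes Kdm5d, Setd3 and Setd9 were not analysed here, and 1 marker gene is not reported here. Partner-gene lists held 102 genes, of which 99 were tested: 4 rose and 11 fell with LD-F1 EVs, and 1 rose and 9 fell with LD-F1_b EVs. The background over all genes tested was 11.4% higher and 9.87% lower with LD-F1 EVs, and 6.44% and 4.54% with LD-F1_b EVs.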

Additional observations from a re-analysis of the deposited data

How the results depend on the processing

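Kdm6b kept its call in both comparisons with PBS under all 14 alternatives, as did Kdm5b, Kdm4a and Ezh2 with LD-F1 EVs. Over single members and alternatives, 2222 values kept direction and side of the threshold, 131 changed sign without being called in either fit, 120 newly passed it, 43 no longer passed it and 4 reversed. The reversals were in LD-F1_b against LD-F1: Crebbp at -0.34 without LD-F1 replicate 2 (0.67 without replicate 1), and, without LD-F1 replicate 1, Kmt2a at 0.45 (-0.44 without replicate 2), Kmt2d at 0.43 (-0.42) and Setd1b at 0.33 (-0.41). With LD-F1 EVs against PBS, the 3 higher members became 7 under the gene-length offset and 3 to 6 when each library was left out, and the 8 lower became 13 under library totals alone, 5 in a fit of the 2 groups and 1 to 23 when each library was left out. With LD-F1_b EVs against PBS, the main fit called 11% of all genes. The 2 higher members became 4 under the gene-length offset (13.4% of all genes called) and 7 in a fit of the 2 groups (24.8%). The 4 lower became 8 without a filter beyond 1 count (8.22% of 22255 genes) and 19 in the fit of the 2 groups. In both comparisons the member counts and the share of all genes called also moved when single libraries were left out. Between the EV groups the counts went from 0 to between 0 and 9 higher and between 0 and 6 lower when each library was left out. The cause of these shifts was not tested.

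Same-numbered libraries did not deviate together (correlations of deviations -0.02, -0.01 and 0.09), so the numbers were not taken to pair the samples. With the replicate number as a block, 3 members were higher and 12 lower with LD-F1 EVs, where 21.2% of all genes were called. With LD-F1_b EVs 2 were higher and 3 lower, with 10.7% of all genes called, and Ehmt1 lost its call (edgeR adjusted p = 0.0518). Between the EV groups the counts were 0 and 0, with 0.408% of all genes called. Depth limits the shallow members, such as Hdac7 with 176 counts in all.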
